A study of Juglans cathayensis with 6 samples.

Results

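TIR-type immune receptors are plant proteins that sense pathogens inside the cell. In the husk of the walnut Juglans cathayensis, 147 of 39234 assembled genes carried a description of this kind: the description contained TMV resistance protein N, SUPPRESSOR OF npr1-1, TAO1, RML1, RPS4, RPS6 or RRS1. These genes were picked by the text of their descriptions and by no measured value. The class itself, however, was singled out after differences between the husks compared here had been seen, so its values and calls stand here as a description and not as evidence about the class.

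Receptors of this type join a TIR domain at the front, a nucleotide-binding NB-ARC domain in the middle and leucine-rich repeats at the end. The repeats commonly take part in recognition, the NB-ARC domain acts as a switch, and the active TIR domain is an enzyme that makes small nucleotide signals. In Arabidopsis and tobacco those signals are read by EDS1, which works with PAD4 or SAG101 and with helper receptors of the ADR1 and NRG1 families to drive defence gene expression and, often, local cell death. TIR receptor genes commonly lie in clusters of near-identical copies and vary greatly between plants of 1 species.

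The husk is the fleshy outer layer of the walnut fruit, and RNA sequencing was done on 3 libraries of a variety whose freshly cut husk was labelled brown and 3 of a variety whose freshly cut husk was labelled white, called brown and white husk here. The study's stated interest was enzymatic browning. All 6 libraries carry the same time label of 35 days, whose starting point is not given in the labels, and the same statement that nothing special was applied. Cut colour and variety cannot be told apart in this design. No label says that the libraries came from separate trees, so p-values measure only the spread between these libraries, which may be technical.

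Levels are given as TPM, the share of a library's transcripts that comes from a gene, which corrects for gene length and library total. TPM keep no sequencing depth, so the depth behind each value is unknown. The table held only genes that reached at least 2.01 TPM in some library. The brown libraries listed 35087 ± 227 genes at 1 TPM or more and the white libraries 31815 ± 3028 (SD, n = 3 each). An exact permutation test, two-sided, gave p = 0.1, which is the lowest value open to 3 against 3 libraries. White library 2 stood apart, with 28349 genes at 1 TPM or more. Green tissue markers were high in both husks, at 5409 ± 1799 summed TPM in brown and 5671 ± 658 in white (SD, n = 3 each; 17 genes). The 18 lignified-shell markers were laccases and secondary-wall cellulose synthases, and 1 entry described as L-ascorbate oxidase-like. They summed to 107.8 ± 53.9 TPM in brown and 114.8 ± 77.0 TPM in white husk. Laccase-14-like DN15107_c2_g7 alone was at 14.20, 66.71 and 34.87 TPM in the brown and 12.98, 177.69 and 69.82 TPM in the white libraries. Of the 12 tested, 2 were higher in brown husk and none lower, and both reached 1 TPM only in brown husk. The 2 oleosins, which mark seed, summed to 20.35, 12.28 and 23.86 TPM in the brown libraries, against 52.03, 36.24 and 40.14 TPM in the white libraries. The sums did not overlap, both log2 differences were negative (-1.14 and -1.12), and 1 of the 2 passed the threshold. The part of these tissues in the receptor results was not tested. In whole husk, fewer cells of a type and less RNA per cell cannot be told apart.

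Most of the receptor genes, 132 of 147, were described as like N, the tobacco receptor for tobacco mosaic virus. Another 7 were described as like RPS4 or RRS1, which work as a pair in Arabidopsis against bacteria. A further 4 were like TAO1, an Arabidopsis receptor that adds to resistance against bacteria, 2 were like SNC1, whose overactive form makes Arabidopsis plants dwarfed and constantly defended, and 1 was like RML1B. The remaining gene was not a receptor: it was described as suppressor of RPS4-RLD 1 (SRFR1), a repeat protein that restrains these receptors in Arabidopsis and that the word RPS4 brought in. All 147 descriptions were taken from Juglans regia, the Persian walnut.

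The names were checked against the deposited domain hits, which give at most 1 domain for each gene. NB-ARC was the hit of 55 members, TIR of 24 and a leucine-rich repeat of 7, while 60 had none. The TIR domain was the hit of 26 genes among all 39234, and 24 of those were members, and none of 148 genes described as non-TIR receptors had it. In the Swiss-Prot column, 59 members were matched to TMV resistance protein N and 60 had no match. The Swiss-Prot matches of DN15642_c0_g1 and DN15220_c1_g2 named other proteins, a phytolongin and a translation initiation factor. Gene IDs are given without their TRINITY prefix throughout.

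Members were often short and lowly expressed, as was the table as a whole. The median length was 645 bases (range 202 to 4509), against 549 over all genes, 62 were shorter than 500 bases and 9 reached 3000 bases. The median of the mean level over 6 libraries was 3.90 TPM, against 3.52 over all genes, 18 members averaged above 10 TPM, and the highest level in any library was 49.88 TPM. A short fragment can be a piece of another listed gene, and reads of near-identical copies can be split between entries, so levels of single entries are uncertain in this family.

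Of the 147 members, 136 reached 1 TPM in at least 3 of the 6 libraries and were tested. In the limma fit over all 37829 tested genes, 17 members passed as higher in brown husk and 15 as lower, at a Benjamini-Hochberg adjusted p under 0.05. Over all tested genes 3.83% passed as higher and 2.17% as lower. Left out in turn, brown 1, brown 2, brown 3, white 1 and white 3 each brought the count of lower members down to between 4 and 6, and brown 3 and white 3 brought that of higher members to 10 and 11. Without white 2 the counts stayed at 17 and 15. The other 104 tested members did not pass the threshold, and 11 were not tested. Of 21 tested members with a TIR hit, 5 were called higher and 1 lower, and of 51 with an NB-ARC hit, 4 and 2. Of 6 with a leucine-rich repeat hit, 1 was called higher and 0 lower. Of 57 tested members without a domain hit, 7 were called higher and 12 lower. Whether calls depend on the domain hit was not tested. At an unadjusted p under 0.05, 41 of the 136 members were higher and 22 lower, against 5561 and 2570 of all 37829 tested genes. Of the tested members, 25 passed the filter only through 1 husk, 14 through brown and 11 through white, and such genes had to differ. They made 9 of the 17 members called higher and 10 of the 15 called lower. Over all 37829 tested genes 1701 were of this kind, so the shares called are not like for like. The 3 brown and 3 white libraries did not overlap for 73 of the 147 members, 48 higher and 25 lower in brown husk, where 20.2% of all genes in the table lay apart with brown higher and 8.74% with brown lower, or 29.0% together.

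The median difference in log2(TPM + 1), taken as brown minus white, was 0.42 over the 136 tested members and 0.19 over all tested genes. Without the members listed at 0 throughout 1 husk, the median over the other 124 was 0.40. Of the 136, 92 had a positive and 44 a negative difference, and of all 37829 tested genes 24342 had a positive and 13487 a negative one. The median size of the difference, regardless of sign, was 0.73 among the members and 0.40 among all tested genes. White library 2 was the lowest of the white libraries for 97 of 147 members (66.0%) and for 59.9% of all genes. Without it, the median over the members was 0.16 and that over all genes 0.06. Quantile normalization brought them to 0.13 and -0.013.

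**Figure D1:**
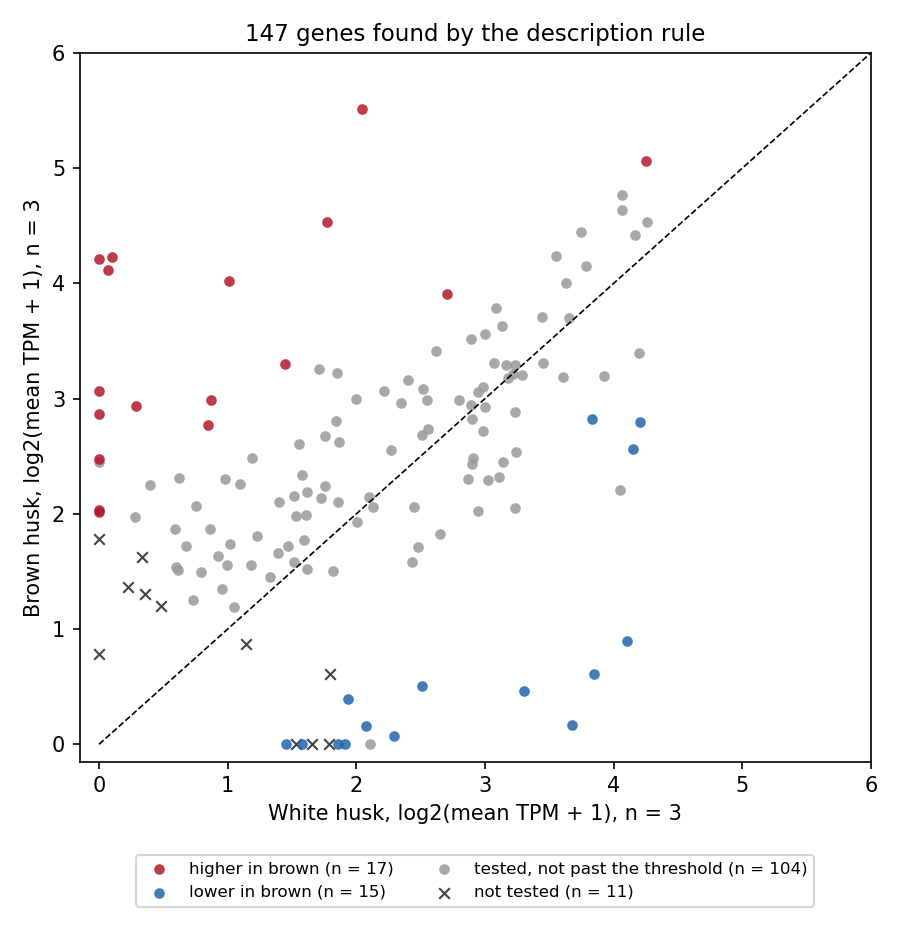
Mean level of each of the 147 genes in brown husk (y axis) and in white husk (x axis), as log2(mean TPM + 1) over 3 libraries each, with the line of equal level dashed. The 17 genes higher and the 15 lower in brown husk include genes that lie on an axis, at 0 in the other husk, and most of the 104 uncalled genes lie near the line.

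The summed level of all 147 members was 938.3, 919.8 and 859.3 TPM in the brown libraries, against 894.5, 486.8 and 738.7 TPM in the white libraries. The ranges overlapped, because white library 1 lay above brown library 3. The 17 members called higher together made 232.7 ± 14.5 TPM in brown and 33.8 ± 3.8 TPM in white husk (SD, n = 3 each). The 15 called lower made 19.7 ± 3.7 TPM in brown and 121.6 ± 28.5 TPM in white husk, and these 2 sums were fixed by the choice of genes. Not all of these genes were low in the other husk: DN15342_c1_g1 alone made over 17 TPM of the white sum in each library, and 3 of the 15 genes called lower averaged above 4 TPM in brown husk. The uncalled members summed to 642.5 ± 29.8 TPM in brown and 539.9 ± 165 TPM in white husk.

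**Figure D2:**
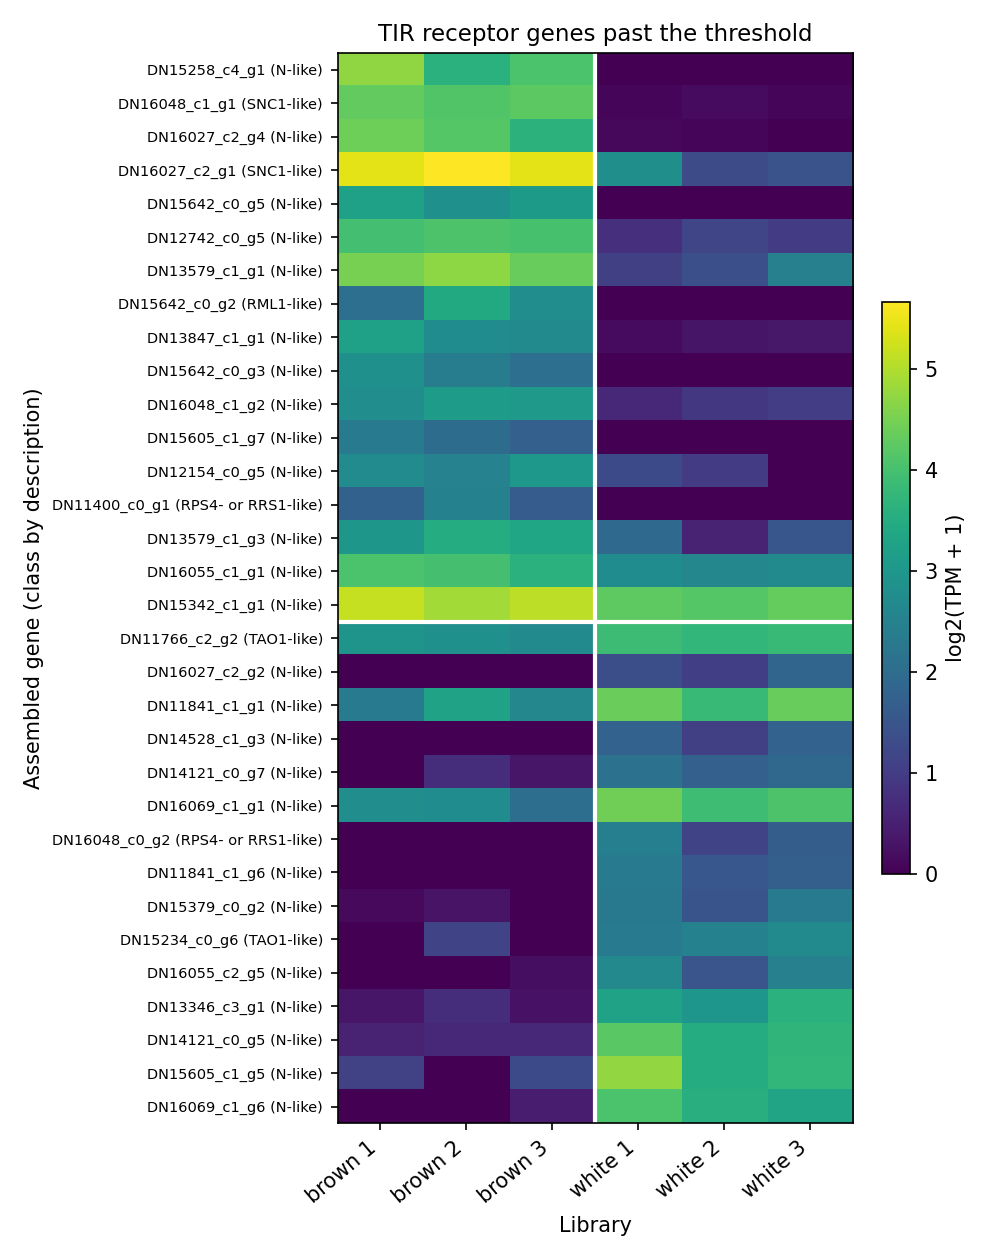
Levels, as log2(TPM + 1), of the 32 genes past the threshold in each library, brown libraries on the left and white on the right. The 17 genes above the white line were higher and the 15 below it lower in brown husk, and no row has brown and white libraries that overlap.

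Both SNC1-like genes were higher in brown husk. DN16027_c2_g1, a 1123-base entry, was at 42.04, 49.88 and 42.42 TPM in the brown libraries, against 6.13, 1.47 and 1.75 TPM in the white libraries. It was the most abundant member in brown husk, and its lowest brown library lay far above its highest white one. The log2 difference was 3.65 (SE 0.39, limma adjusted p = 0.00388). DN16048_c1_g1, of 1392 bases and with a TIR domain hit, was at 18.89, 16.52 and 17.82 TPM in the brown libraries, against 0.05, 0.12 and 0.05 TPM in the white libraries. This gene was close to 0 throughout white husk and steady in brown, with a log2 difference of 4.12 (SE 0.25, limma adjusted p = 0.000408). It passed the filter only through brown husk, so it had to differ. The Swiss-Prot matches of the 2 entries were ADR2 and TMV resistance protein N, so the SNC1 name rests on the walnut description alone.

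The N-like genes went both ways: 13 of the 123 in the test passed as higher in brown husk and 12 as lower. Among the rises, DN16027_c2_g4 was at 20.30, 17.12 and 11.48 TPM in the brown libraries, against 0.09, 0.06 and 0 TPM in the white libraries. It carried an NB-ARC hit over 792 bases, and its log2 difference was 4.01 (SE 0.31, limma adjusted p = 0.00105). DN12742_c0_g5, of 283 bases, was at 14.72, 15.89 and 15.16 TPM in the brown libraries, against 0.73, 1.28 and 1.02 TPM in the white libraries. The spread within each husk was small beside the gap between them. DN13579_c1_g1, with an NB-ARC hit over 1217 bases, was at 21.77, 25.18 and 19.44 TPM in the brown libraries, against 1.10, 1.62 and 4.55 TPM in the white libraries. DN13847_c1_g1 was at 8.50, 5.81 and 5.60 TPM in the brown libraries, against 0.13, 0.25 and 0.28 TPM in the white libraries. The log2 differences of these 3 genes were 3.02, 2.88 and 2.63, and none of them had libraries that overlapped between the husks. DN16027_c2_g4 and DN13847_c1_g1 passed the filter only through brown husk, so they had to differ.

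Among the falls, DN16069_c1_g6, of 330 bases, was at 0, 0 and 0.37 TPM in the brown libraries, against 15.74, 10.82 and 8.91 TPM in the white libraries. It had the largest negative difference of the tested members, -3.49 (SE 0.33, limma adjusted p = 0.00226). DN14121_c0_g5, a longer entry of 1877 bases, was at 0.47, 0.56 and 0.56 TPM in the brown libraries, against 17.55, 10.47 and 12.13 TPM in the white libraries. DN15605_c1_g5 was at 1.17, 0 and 1.41 TPM in the brown libraries, against 25.95, 10.31 and 12.42 TPM in the white libraries. These 3 and DN13346_c3_g1, at 0.26, 0.66 and 0.21 TPM in brown and 8.62, 6.85 and 11.21 TPM in white husk, had differences from -2.84 to -3.49. They are the 4 falls that stayed called when any 1 library was left out. All of them but DN15605_c1_g5 passed the filter only through white husk, so they had to differ. DN16069_c1_g1, an NB-ARC entry of 1615 bases, fell without nearing 0: it was at 5.90, 5.73 and 3.11 TPM in the brown libraries, against 20.57, 13.95 and 15.89 TPM in the white libraries. Its call was lost without brown 2, brown 3, white 1 or white 3.

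The most abundant N-like entry was DN15342_c1_g1, of 2144 bases. It was at 34.93, 28.70 and 33.36 TPM in the brown libraries, against 18.08, 17.19 and 18.95 TPM in the white libraries. The libraries did not overlap and the log2 difference was 0.80 (SE 0.14, limma adjusted p = 0.0209), but with TMM factors the adjusted p was 0.0507, and the call was lost without any 1 library other than white 2. DN15642_c0_g1, next in abundance among them, was at 27.78, 24.48 and 26.39 TPM in the brown libraries, against 19.93, 12.22 and 15.04 TPM in the white libraries. It did not pass the threshold (limma adjusted p = 0.0792).

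The TAO1-like genes were lower in brown husk or did not pass. None of them had a Swiss-Prot match or a domain hit, so the TAO1 name rests on the walnut description alone. The 4 genes summed to 7.57, 11.23 and 6.17 TPM in the brown libraries, against 26.97, 21.69 and 22.60 TPM in the white libraries. All 4 had a negative difference, and 2 passed the threshold. DN11766_c2_g2 was at 6.65, 6.14 and 5.44 TPM in the brown libraries, against 13.68, 12.59 and 13.41 TPM in the white libraries, a log2 difference of -1.01 (SE 0.18, limma adjusted p = 0.0209). The libraries did not overlap, but the call was lost when brown 1, brown 2, brown 3, white 1 or white 3 was left out, with limma adjusted p from 0.0517 to 0.1004. DN15234_c0_g6, a 208-base fragment, was at 0, 1.25 and 0 TPM in the brown libraries, against 4, 4.66 and 5.42 TPM in the white libraries. Of the fits that left out 1 library, only that without brown 2 kept its call. DN15558_c0_g1 was listed at 0 in every brown library, against 6.03, 2.76 and 1.10 TPM in the white libraries, and fell just outside the threshold (limma adjusted p = 0.0560).

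The RPS4- and RRS1-like group gave 1 rise, 1 fall and 3 genes that did not pass, and 2 of its 7 genes were not tested. No tested gene of the group had a Swiss-Prot match or a domain hit, so these names too rest on the walnut descriptions alone. The rise was DN11400_c0_g1, described as an inactive RPS4-like protein, at 2.38, 4.61 and 2.15 TPM in the brown libraries and listed at 0 in all 3 white libraries. The fall was DN16048_c0_g2, an RRS1-like fragment, listed at 0 in all 3 brown libraries and at 4.45, 1.23 and 2.19 TPM in the white libraries. Neither call held throughout: that of DN11400_c0_g1 was lost without brown 2, brown 3, white 1 or white 3, and that of DN16048_c0_g2 without any 1 library other than white 2. Both genes passed the filter only through the husk where they were present, so they had to differ. The highest of the group, RRS1-like DN14112_c0_g2, was at 4.19, 2.69 and 2.52 TPM in the brown libraries, against 13.68, 4 and 7.56 TPM in the white libraries. Its libraries overlapped between the husks (limma adjusted p = 0.193). RRS1-like DN15825_c3_g4 also overlapped, with a log2 difference of -0.87 and a limma adjusted p of 0.297.

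Some entries were present in 1 husk and listed at 0 in the other. Taking 0 TPM in all 3 libraries of 1 husk and at least 1 TPM in all 3 of the other, 7 members were on in brown only and 5 in white only. Among all genes of the table these shares were 0.813% and 0.477%, or 1.29% together, and the 12 members were 8.16% of 147. Without white library 2, 8 members were on in white only. A fold change cannot be given against a husk listed at 0, and 10 of the 12 passed the limma threshold. The 12 were picked for this gap, so neither that count nor their adjusted p-values add evidence of a difference. The highest was DN15258_c4_g1, a 218-base entry with a TIR hit, at 25.70, 11.21 and 15.70 TPM in the brown libraries and at 0 in every white library (limma adjusted p = 0.00147). It was the only brown-only entry above 10 TPM in every library where it was on.

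Several of the brown-only entries were very short. DN15642_c0_g5, DN15642_c0_g2 and DN15642_c0_g3, of 241, 240 and 244 bases, shared 1 assembly cluster. DN15642_c0_g5 was at 8.47, 6.18 and 7.48 TPM in the brown libraries, the RML1B-like DN15642_c0_g2 at 3.21, 9.81 and 5.88 TPM, and DN15642_c0_g3 at 6.16, 4.28 and 3.23 TPM. All 3 were listed at 0 in white husk, while the 2005-base DN15642_c0_g1 of the same cluster was present in both husks. The call of DN15642_c0_g2 was lost without brown 3. The longest brown-only entry was DN15605_c1_g7, of 1092 bases, at 3.96, 3 and 2.32 TPM in the brown libraries and at 0 in the white ones. The white-only entries were all low: DN11841_c1_g6 was at 0 in the brown libraries and at 4.14, 1.89 and 2.27 TPM in the white libraries, and no white-only entry reached 2 TPM in all 3 white libraries. The calls of all 4 called white-only entries were lost without any 1 library other than white 2.

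Short entries held most of this on-or-off pattern. Of the 62 members under 500 bases, 9 were on in 1 husk only (14.5%), against 2.25% of all genes of that length. From 500 to under 1000 bases it was 2 of 39 (5.13%), against 0.922% of all genes. At 1000 bases or more it was 1 of 46 (2.17%), against 0.189%. The calls of the limma fit were spread over lengths: 12 of 52 tested members under 500 bases were called, 10 of 38 from 500 to under 1000 bases, and 10 of 46 of 1000 bases or more. Among all tested genes of these lengths, 5.30%, 8.42% and 5.85% were called.

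Members were often listed side by side in the assembly. Trinity gives entries that share sequence paths a common cluster, and the 147 members fell into 72 such clusters, of which 39 held 1 member and 33 held 2 to 7. A cluster may hold copies, alleles or pieces of 1 gene, and some also held unrelated genes, such as the aquaporin beside DN11766_c2_g2, so a shared cluster does not show kinship. Of the 22 clusters with any called member, 8 had 2 or more. In 6 of those 8 all calls went 1 way, and in 2 they went both ways. Both of these rest on a call that was not stable: that of DN16027_c2_g2 was lost without any 1 library other than white 2, and that of DN15605_c1_g7 without white 3.

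In cluster DN16027_c2, the SNC1-like DN16027_c2_g1 and the N-like DN16027_c2_g4 were higher in brown husk. The N-like DN16027_c2_g2 beside them was listed at 0 in all 3 brown libraries, against 1.56, 1.07 and 2.58 TPM in the white libraries (limma adjusted p = 0.0460). DN16027_c2_g4 passed the filter only through brown husk and DN16027_c2_g2 only through white husk, so both had to differ. The 4 members of that cluster summed to 64.63, 70.85 and 55.74 TPM in the brown libraries, against 8.29, 3.30 and 5.59 TPM in the white libraries. The 2 brown-high members made most of the sum in brown husk, and the sums did not overlap between the husks.

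In cluster DN15605_c1, the brown-only DN15605_c1_g7 stood beside DN15605_c1_g5, which was nearly absent from brown husk. The 3067-base DN15605_c1_g3 of that cluster, an NB-ARC entry, was at 7.38, 6.69 and 7.98 TPM in the brown libraries, against 7.91, 5.97 and 6.26 TPM in the white libraries, and the husks overlapped. This last entry was picked out after its values were seen. The 7 members summed to 28.17, 27.02 and 27.61 TPM in the brown libraries, against 45.81, 20.69 and 26.14 TPM in the white libraries. The summed level overlapped between the husks although single entries lay at opposite extremes.

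**Figure D3:**
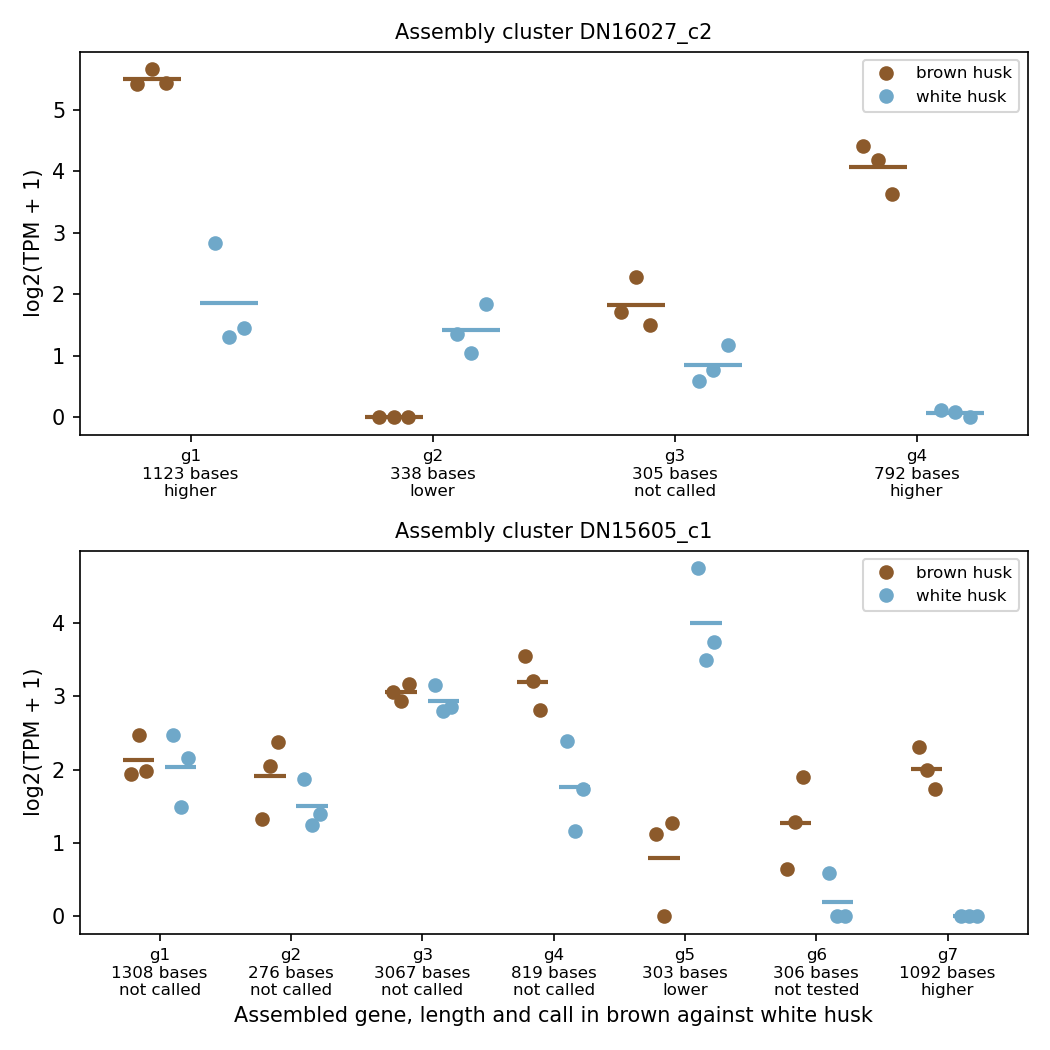
Levels of the members of the 2 assembly clusters with calls in both directions, as log2(TPM + 1), with a point for each library, brown left of white for each gene, and a line at the mean of 3 libraries. In DN16027_c2 the g1 and g4 entries are high in brown husk and g2 is at 0 there, and in DN15605_c1 the g5 entry is high in white husk and g7 is at 0 there.

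The 11 untested members were at the edge of the table. DN16048_c1_g3, DN11959_c0_g4 and DN15864_c0_g6 were listed at 0 in every brown library and at 3.60, 0.62 and 2.21 TPM, 4.31, 0.21 and 2.82 TPM, and 3.47, 0.35 and 1.87 TPM in the white libraries. White library 2 was the lowest in each of these 3 genes and kept them below 1 TPM there. DN16027_c1_g1, RPS4- or RRS1-like, was at 0, 1.11 and 6.22 TPM in the brown libraries and at 0 in the white ones. These 4 untested genes were picked out after their values were seen.

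The nearest class for comparison is the receptors without a TIR domain, of which 148 were listed and 146 tested. In this class 19 genes were higher (13.0%) and 8 lower (5.48%) in brown husk, the median log2 difference was 0.39, and 12 genes (8.11%) were on in 1 husk only. For the TIR-type members the same measures were 17 of 136 higher (12.5%), 15 of 136 lower, a median of 0.42 and 8.16%. With any 1 library other than white 2 left out, 4 to 6 TIR-type members and 3 to 5 of the other class were lower. Whether the classes differ was not tested.

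The next genes encode proteins through which TIR receptors act. Of 76 partner genes, 71 were tested, and 4 (5.63%) were higher and none lower in brown husk by limma. Of these 4, 1 (DN12638_c1_g1) passed the filter only through brown husk, so it had to differ. Over all tested genes 3.83% were higher and 2.17% lower. At an unadjusted p under 0.05, 12 of the 71 were higher and 4 lower, against 5561 and 2570 of all 37829 tested genes. With TMM factors, quantile normalization or no trend 1 partner gene, CPR30-like DN3905_c0_g2, was called lower, and without white library 2 the count was 2, HSP83-like DN15150_c2_g5 and TOPLESS-related DN12462_c0_g1. These 3 were picked out after their values were seen. The median log2 difference over the 71 was 0.15. EDS1L-like DN14327_c3_g3, the hub of TIR signalling, was at 27.38, 28.33 and 24.72 TPM in the brown libraries, against 16.68, 11.35 and 15.21 TPM in the white libraries. The husks did not overlap, and the log2 difference was 0.87 (SE 0.18, limma adjusted p = 0.0353). EDS1B-like DN14327_c3_g2 was at 6.71, 9.98 and 7.88 TPM in the brown libraries, against 6.11, 2.90 and 5.34 TPM in the white libraries, and did not pass (limma adjusted p = 0.233).

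PAD4, the EDS1 partner in basal defence, was a single gene, DN12908_c4_g1. It was at 14.02, 12.18 and 14.24 TPM in the brown libraries, against 6.13, 6.09 and 6.75 TPM in the white libraries, a log2 difference of 0.98 (SE 0.18, limma adjusted p = 0.0221). SAG101, the EDS1 partner tied to cell death, was at 18.56, 27.67 and 21.17 TPM in the brown libraries, against 16.58, 7.14 and 16 TPM in the white libraries. These libraries did not overlap either, but the gene did not pass (limma adjusted p = 0.216). The EDS1L and PAD4 calls rested on few libraries: each was lost without brown 1, brown 2, brown 3 or white 3, and PAD4 also without white 1.

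None of the 8 tested helper receptor genes was called by limma, and 2 of them had an unadjusted p under 0.05. The most abundant, DN13403_c1_g7 of the At5g66900 type, was at 16.82, 15.05 and 15.85 TPM in the brown libraries, against 15.78, 17.68 and 16.29 TPM in the white libraries, and the husks overlapped. Of the 8 helper genes 7 had a positive and 1 a negative difference, with a median of 0.58. DN14107_c4_g9 and DN14107_c4_g5, of the At4g33300 type, had log2 differences of 1.14 and 1.06 and did not overlap. Neither passed the threshold (limma adjusted p = 0.0657 and 0.0981), and both were picked out after their values were seen. SRFR1 was at 19.94, 21.89 and 19.33 TPM in the brown libraries, against 18.22, 15.54 and 17.17 TPM in the white libraries (limma adjusted p = 0.371). NPR3-like DN13775_c1_g3, the most abundant gene of the NPR1 family of salicylic acid receptors, had a log2 difference of 0.34 and did not pass (limma adjusted p = 0.375).

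The other 2 called partner genes were short entries. A TOPLESS-like fragment of 658 bases, DN15609_c2_g1, whose description was taken from Erythranthe guttata, was at 43.74, 42.93 and 38.77 TPM in the brown libraries, against 15.52, 17.48 and 16.68 TPM in the white libraries. TOPLESS proteins are transcriptional co-repressors that work with SNC1 in Arabidopsis. The log2 difference was 1.29 (SE 0.13, limma adjusted p = 0.00332), and this was the only called gene of 13 TOPLESS and TOPLESS-related genes. A SAR DEFICIENT 1-like fragment of 411 bases, DN12638_c1_g1, was at 3.48, 4.23 and 2.58 TPM in the brown libraries, against 0.24, 0.51 and 0.60 TPM in the white libraries. SAR DEFICIENT 1 switches on salicylic acid synthesis in Arabidopsis. The call of DN12638_c1_g1 (log2 difference 1.60, limma adjusted p = 0.0304) was lost in each fit that left out 1 library. This gene passed the filter only through brown husk, so it had to differ.

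**Figure D4:**
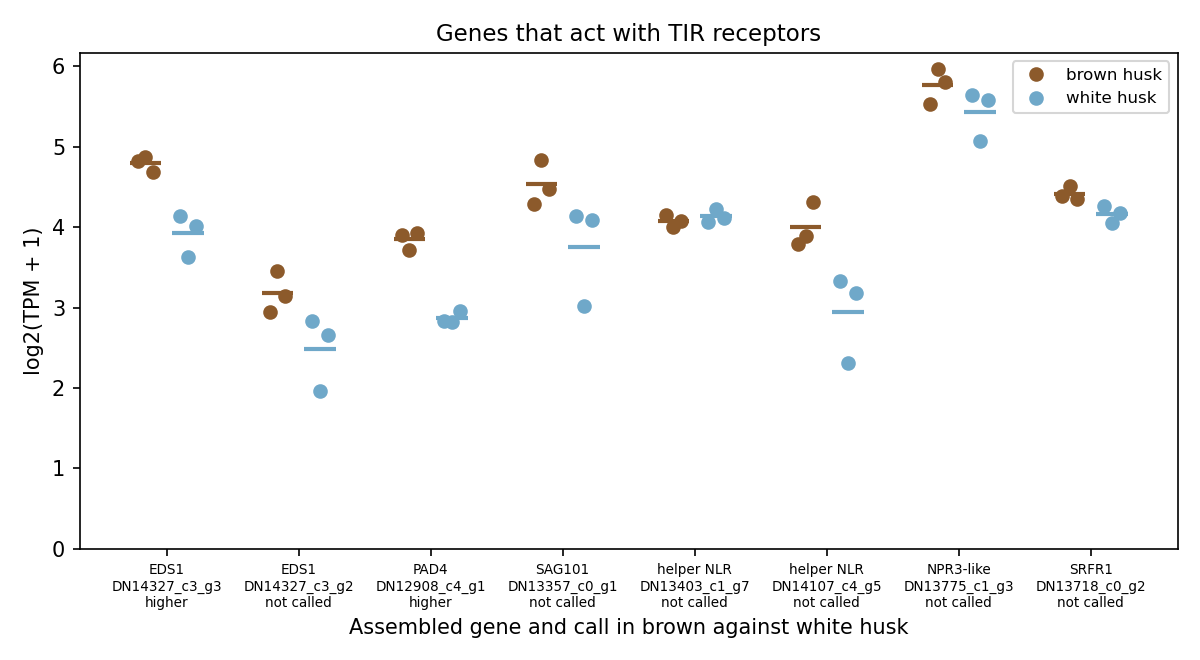
Levels of genes that act with TIR receptors, as log2(TPM + 1), with a point for each library, brown left of white for each gene, and a line at the mean of 3 libraries. The brown libraries lie above the white ones without overlap for both EDS1-like genes, PAD4, SAG101, the At4g33300-type helper receptor DN14107_c4_g5 and SRFR1. The At5g66900-type helper receptor DN13403_c1_g7 and NPR3-like DN13775_c1_g3 overlap. Only EDS1L-like DN14327_c3_g3 and PAD4 passed the threshold.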

How the data were processed

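RNA of 6 husk libraries was sequenced on Illumina, and the submitters' processing notes name cutadapt and FastQC; the sources used here name no quantifier. The authors deposited 1 table of TPM values per assembled gene with descriptions, which the IDs mark as a Trinity assembly. TPM per library summed to between 994877 and 996692, and no column was left out.

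The members and all lists were chosen with earlier results of these data known, and some list patterns were narrowed after descriptions had been read, to drop proteins that only shared a word. TPM were analysed as log2(TPM + 1) for genes that reached 1 TPM in 3 or more of the 6 libraries. The difference between brown and white husk was fitted over 37829 genes with limma 3.58.1 (R 4.3.3) and a mean-variance trend, with Benjamini-Hochberg adjustment and a threshold of 0.05; the script was tested on simulated data. Depth is unknown, so counting error could not be given, and errors are the spread between libraries. Differences on the log2(TPM + 1) scale understate changes of low genes.

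Named genes were the 10 called members with the largest rise and the 10 with the largest fall, up to 8 members on in 1 husk only by level, the 2 highest members of each class, members called in opposite directions within a cluster, called partner genes, and the highest gene of 5 partner lists. No partner description matched EDS5, PBS3 or ALD1. Among the partner lists without a called gene by limma were NDR1, SGT1, RAR1, HSP90, the NPR1 family, isochorismate synthase, FMO1, CPR1 or CPR30, BONZAI and MODIFIER OF SNC1, and the helper receptors, SAG101 and SRFR1. Alternatives covered the pseudocount (0.1 and 0.5), the filter (none, 5 TPM), TMM and quantile scaling, no trend, a replicate block, each library left out (with the genes tested kept the same), and other limits for on and off.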

Additional observations from a re-analysis of the deposited data

How the results depend on the processing

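No called member of the 32 changed sign under any alternative in which it was tested, and 13 stayed called without any 1 library, 9 of them higher and 4 lower in brown husk. The count of members higher in brown husk, 17, ran from 10 to 17 with 1 library left out. The count of members lower, 15, ran from 4 to 15 and was at most 6 when the library left out was any other than white 2; it was 7 with the 5 TPM filter. With TMM factors 18 members were higher and 19 lower, and with quantile normalization 17 and 20. Members on in white only, 5, were 0 when on meant 2 TPM, and 5 to 8 with 1 library left out. Partner genes higher, 4, ran from 1 to 3 with 1 library left out, and partner genes lower, 0, from 0 to 2, with 1 under TMM, quantile normalization or no trend. Receptors without a TIR domain, 19 higher and 8 lower, were 12 and 2 with the 5 TPM filter, 8 to 17 and 3 to 8 with 1 library left out, and 14 were lower under quantile normalization. Over all genes, 1450 higher ran from 410 to 1255 and 819 lower from 259 to 1013 with 1 library left out, and 1275 were lower under quantile normalization; the median of all genes was 0.19, and -0.013 under quantile normalization. The summed member level was 199.1 TPM higher in brown husk, 117.6 with TMM factors and 89.2 without white library 2. The cause of these shifts was not tested.

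Libraries with the same number did not deviate together (correlations 0.057, 0.056 and 0.011), so the numbers were not taken to pair the samples. With the replicate block, 17 of the 32 calls were kept, 12 higher and 5 lower; 1 partner gene was higher, 13 receptors without a TIR domain were higher and 3 lower, and 735 genes were higher and 490 lower overall.

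Depth is unknown, so a value of 0 TPM cannot be told from a low level, and entries under 500 bases are the least certain.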

Other observations

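The deposited pathway annotation placed many of these genes under an unlikely entry. Of the 147 members, 59 carried the KEGG entry for heat shock 70 kDa protein, which was 56.2% of the 105 genes with that entry in the table, while 25 of those 105 were described as heat shock proteins. Of the 15 called genes under that entry, 10 were members and 3 were described as heat shock proteins. A further 12 members stood among the 27 genes under sucrose synthase and 11 among the 27 under replication factor A1. Only 7 members were listed under plant-pathogen interaction, and 52 had no entry. By contrast, 69 members carried the gene ontology term for defense response and 67 that for ADP binding, and 44 had no term.

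RPP1- and RPP5-like genes, named for Arabidopsis TIR receptors against downy mildew, lie outside the description rule and were looked up after the data were seen. All 8 were tested, and 2 were higher and 2 lower in brown husk by limma. Of all tested genes, 3.83% were called higher and 2.17% lower. The 4 called genes passed the filter only through the husk where they were high, so they had to differ. RPP5-like DN14121_c0_g4 was at 5.61, 6.51 and 6.23 TPM in the brown libraries, against 0.85, 0.91 and 0.62 TPM in the white libraries (limma adjusted p = 0.00976), and RPP5-like DN14121_c0_g8 was at 4.80, 2.89 and 4.12 TPM, against 0.75, 0.79 and 0.85 TPM (limma adjusted p = 0.0387). In the same assembly cluster, RPP1-like DN14121_c0_g6 was listed at 0 in every brown library, against 1.25, 2.49 and 2.94 TPM in the white libraries, and the members DN14121_c0_g5 and DN14121_c0_g7 were lower in brown husk. With these entries counted, that cluster too held calls in both directions, but each of its called genes passed the filter only through 1 husk.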
